A study of Mus musculus with 22 samples.

Results

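The genes described here encode scaffolds and adhesion molecules of the postsynaptic side of the synapse, most of them known from excitatory synapses and some, such as Nlgn2 and Iqsec3, from inhibitory ones, together with kinases, exchange factors and receptor auxiliary subunits that are anchored there. The group was defined by name, from the roles of the proteins, and holds 34 of the 21995 genes in the deposited tables. All 34 were found by Ensembl identifier, and all 34 passed the filter on low counts in both comparisons. They were measured by RNA-seq of whole spinal cord, with 1 library per mouse, in 22 mice on the C57BL/6 strain. The aging comparison set 8 old wild-type males of 18 to 24 months against 8 young wild-type males of 3 to 4 months, with libraries made with the Roche KAPA HyperPrep kit. The ALS comparison set 3 SOD1-G93A mice of 5 to 6 months, which were symptomatic, against 3 wild-type control mice of that age, with libraries made with the Illumina TruSeq kit. SOD1-G93A mice carry a high-copy transgene of mutant human superoxide dismutase 1, which is active in most cell types, and are a model of amyotrophic lateral sclerosis (ALS). Each of these 2 groups held 2 females and 1 male, and the sex of a single library was not given in the sources used here. The sources do not state whether the mice of a group came from separate litters.

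The postsynaptic density is a protein mesh beneath the membrane of the dendrite, opposite the site of transmitter release. Dlg scaffolds hold glutamate receptors near the membrane, Dlgap proteins join them to the deeper Shank and Homer scaffolds, and adhesion molecules such as the neuroligins and Lrrtm proteins reach across the cleft to presynaptic neurexins. In the spinal cord such synapses lie on interneurons and motor neurons of the grey matter, while most of the white matter, which makes up much of a whole-cord sample, consists of axons, glia and vessels. In RNA from whole tissue, fewer neurons and less RNA per neuron cannot be told apart.

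The young libraries held 5078092 to 9358055 counts, the old 5664869 to 9145600, the control 10693060 to 13219797 and the SOD1-G93A 9675610 to 11872431. Levels are given as CPM, the counts of a gene scaled to the total of its library after TMM adjustment, and 3 counts correspond to at most 0.582 CPM in any library. Libraries are named by letters, which carry no order or pairing. Neuronal markers were present in every library, with a summed level of 15 pan-neuronal markers (such as Rbfox3, Snap25 and Syt1) of 4530 CPM or more, and 5 forebrain markers summed to 9.1 CPM or less. Among old mice, library Old F stood apart. Its 10 most abundant genes took 15.1% of its counts, against 8.01 to 11.9% in the other 15 libraries of the aging comparison, its forebrain markers summed to 9.1 CPM against 3.54 to 4.96 CPM in the other old mice, its microglia and macrophage markers summed to 581 CPM against 797 to 1000 CPM, and its pan-neuronal markers summed to 8500 CPM against 6710 to 7650 CPM. Results that rest on it are therefore given with and without it.

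The levels of the 34 genes spanned about 2 orders of magnitude. Because long genes collect more reads, levels were compared between genes only as FPKM (fragment counts divided by the length of the transcript and the size of the library), taken back from the deposited log2 values. In young mice Dlg4, which encodes the scaffold PSD-95, was highest at 137 ± 7.29 FPKM (SD, n = 8). Iqsec1, an exchange factor for Arf GTPases, followed at 113 ± 3.09 FPKM, and Camk2b, the beta subunit of calcium/calmodulin-dependent kinase II, at 97.7 ± 3.72 FPKM. The means of these 3 genes lay further apart than their SDs, and the next gene was well below them, with Nlgn2 at 49.1 ± 3.05 FPKM. Neighbours further down often overlapped: Iqsec2 at 36.2 ± 1.85, Anks1b at 36.0 ± 5.63 and Dlg1 at 35.6 ± 3.03 FPKM could not be ordered. The lowest gene was Lrrc7, which encodes the kinase-binding scaffold densin, at 1.38 ± 0.341 FPKM.

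Within most families a single member led in the young cord. Of the Shank scaffolds, Shank1 stood at 42.6 ± 5.78 FPKM, Shank3 at 11 ± 1.12 FPKM and Shank2 at 7.21 ± 0.519 FPKM. Of the neuroligins, Nlgn2, known from inhibitory synapses, exceeded Nlgn3 (12 ± 1.24 FPKM) and Nlgn1 (9.19 ± 0.688 FPKM). Camk2b was higher than Camk2a, the alpha subunit that is most abundant in forebrain, which stood at 33.4 ± 2.13 FPKM. The Homer family differed: Homer3 at 8.62 ± 1.80 FPKM and Homer1 at 6.88 ± 0.975 FPKM overlapped within their spread, and Homer2 was lower at 3.68 ± 0.829 FPKM. In the control mice the same 3 genes led, in another order, with Iqsec1 at 108 ± 2.86 FPKM, Dlg4 at 106 ± 5.55 FPKM and Camk2b at 96.5 ± 1.26 FPKM (SD, n = 3). The 2 sets of libraries were made with different kits, so these levels were not tested against each other.

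**Figure D1:**
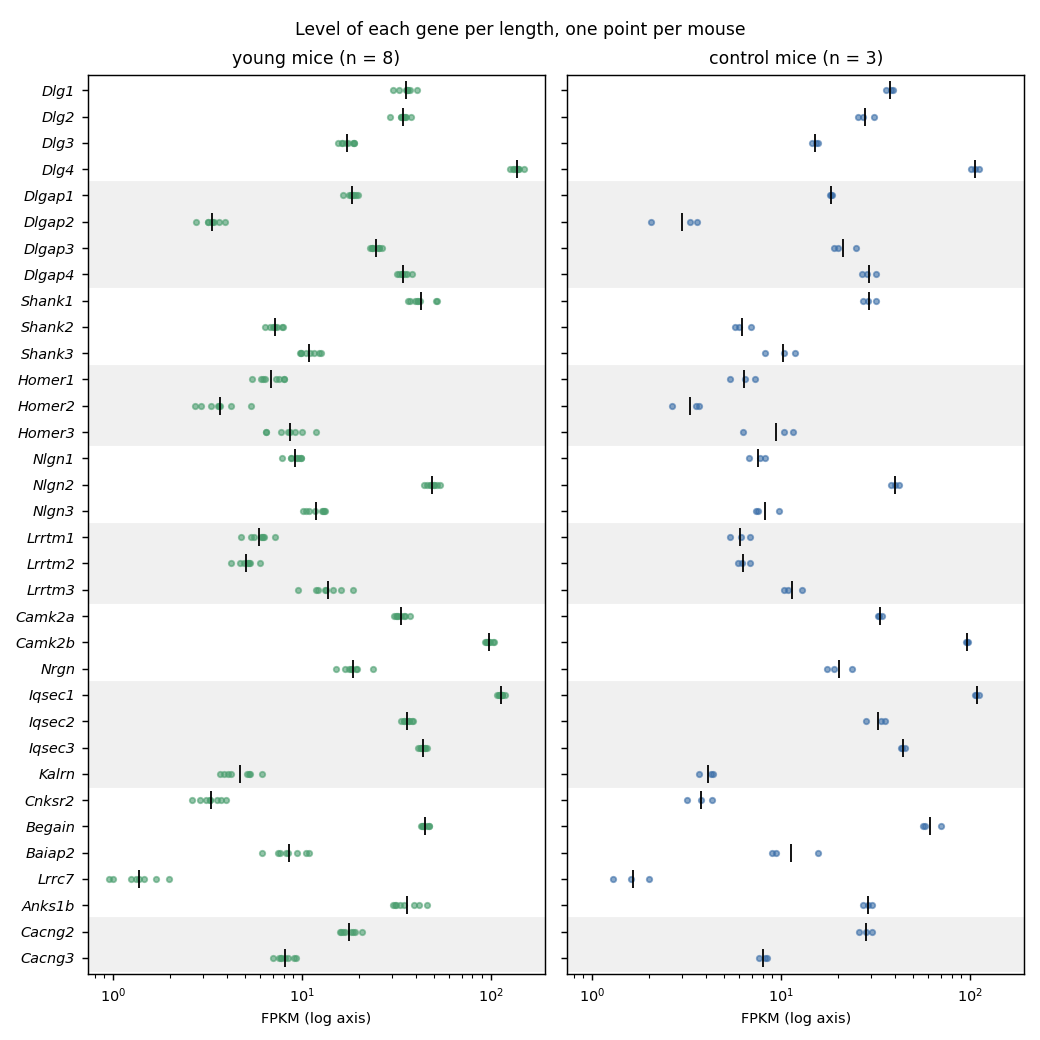
Level of each of the 34 genes in FPKM, on a log axis, in the 8 young mice (left) and the 3 control mice (right). Each point is a mouse, the black tick is the mean, and shading separates families; Dlg4, Iqsec1 and Camk2b lie to the right of all others in both panels, and Lrrc7 lies furthest to the left.

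Promoters were examined because many of these genes moved together. RefSeq promoter windows on GRCm38.p6, from 250 bases before to 50 bases after a start site, were matched by symbol for 28 of the 34 genes, with 51 windows in all. The GC box GGGCGG, searched on both strands, was in 27 of the 51 windows (52.9%) and in 35.7% of all 32851 promoters. The cAMP response element TGACGTCA was in 0 of the 51 windows and in 1.79% of all promoters. The E-box CACGTG was in 5 windows (9.8%, against 7.15% of all), and TATAAA in 4 windows (7.84%, against 13.6%). The searched motifs do not contain each other. Shown are the window of Homer3, the single gene that rose in both comparisons, and those of Cacng2 and Anks1b, the genes with the most negative fold change and the smallest adjusted p in aging. Capitals mark matches to any of these motifs on either strand.
Homer3, chr8:70282749-70283048, plus strand: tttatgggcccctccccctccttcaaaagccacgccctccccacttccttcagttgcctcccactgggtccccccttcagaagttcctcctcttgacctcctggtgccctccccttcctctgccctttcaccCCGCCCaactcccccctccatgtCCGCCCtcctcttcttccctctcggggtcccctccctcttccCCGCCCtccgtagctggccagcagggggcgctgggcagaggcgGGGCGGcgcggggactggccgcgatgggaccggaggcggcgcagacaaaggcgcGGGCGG
Cacng2, chr15:78119231-78119530, minus strand: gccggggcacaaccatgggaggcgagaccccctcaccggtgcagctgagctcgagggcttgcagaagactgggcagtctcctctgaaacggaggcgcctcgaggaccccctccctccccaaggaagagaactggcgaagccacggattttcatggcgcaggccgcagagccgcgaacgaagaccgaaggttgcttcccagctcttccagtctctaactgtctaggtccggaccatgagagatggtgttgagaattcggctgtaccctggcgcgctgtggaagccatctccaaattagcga
Anks1b, chr10:89873259-89873558, plus strand: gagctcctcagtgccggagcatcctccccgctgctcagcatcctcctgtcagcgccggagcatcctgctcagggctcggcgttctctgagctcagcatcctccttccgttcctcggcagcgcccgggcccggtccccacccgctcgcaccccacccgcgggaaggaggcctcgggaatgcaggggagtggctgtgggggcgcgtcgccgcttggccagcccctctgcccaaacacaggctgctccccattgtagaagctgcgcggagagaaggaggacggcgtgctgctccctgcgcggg
The Homer3 window held 5 matches, all to the GC box, and was 69.7% G and C. The Cacng2 and Anks1b windows held 0 matches to the 4 motifs although they were 61% and 70.3% G and C. The windows shown do not stand for the genes that rose or fell, and a link between motif and direction was not tested. These matches describe letters in the window and not binding.

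In aging, 16 of the 34 genes fell and 1 rose at an adjusted p under 0.05 (edgeR's quasi-likelihood test, Benjamini-Hochberg). Over all 13647 genes tested, 12.9% were lower and 13.5% were higher. The 34 genes had a median log2 fold change of -0.18, a decrease of 11.7%, beside a median of -0.00 over all genes. The changes were small: 0 of the 34 also passed a log2 fold change of 1 or more in size, which 0.044% of all genes did downward and 2.18% upward. Of the 34 fold changes 28 were negative, against 50.6% of all genes. The members that fell came from most families, with all 3 Shank genes, 2 of 3 Homer genes, 2 of 3 Lrrtm genes, 2 of 4 Dlgap genes, 1 of 4 Dlg genes and 1 of 3 neuroligins, and 0 of the 3 kinase and calmodulin genes were called.

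The number of calls depended on whether a correction for the base composition and length of the genes was made. The members were longer than other genes, with a median exonic length of 9160 bases against 4620, and slightly richer in G and C, at 52.7% against 49.9%. Across the 34 members the aging fold change ran with GC content (Spearman's rho 0.42) and against length (rho -0.38), and across all tested genes the same correlations were 0.28 and -0.39. These are correlations across genes, which are not independent replicates. With a correction for GC content and length in each library, 7 genes were lower and 1 was higher in aging. The correction was fitted to the deviations of each library, so it also removes a change with age that runs with these properties. It therefore cannot tell a technical effect from such a change. Dlgap2, Shank2, Lrrtm3, Baiap2, Cacng2 and Anks1b were called in that fit as well, Lrrtm1 was added at a log2 fold change of -0.26 (edgeR adjusted p = 0.0395), and Dlg4 became the single higher gene at 0.14 (edgeR adjusted p = 0.0138). The calls of Dlg2, Dlgap1, Shank1, Shank3, Homer1, Homer2, Homer3, Nlgn3, Lrrtm2, Iqsec3 and Kalrn were lost in it. Without Old F, 19 genes were lower and 1 was higher.

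**Figure D2:**
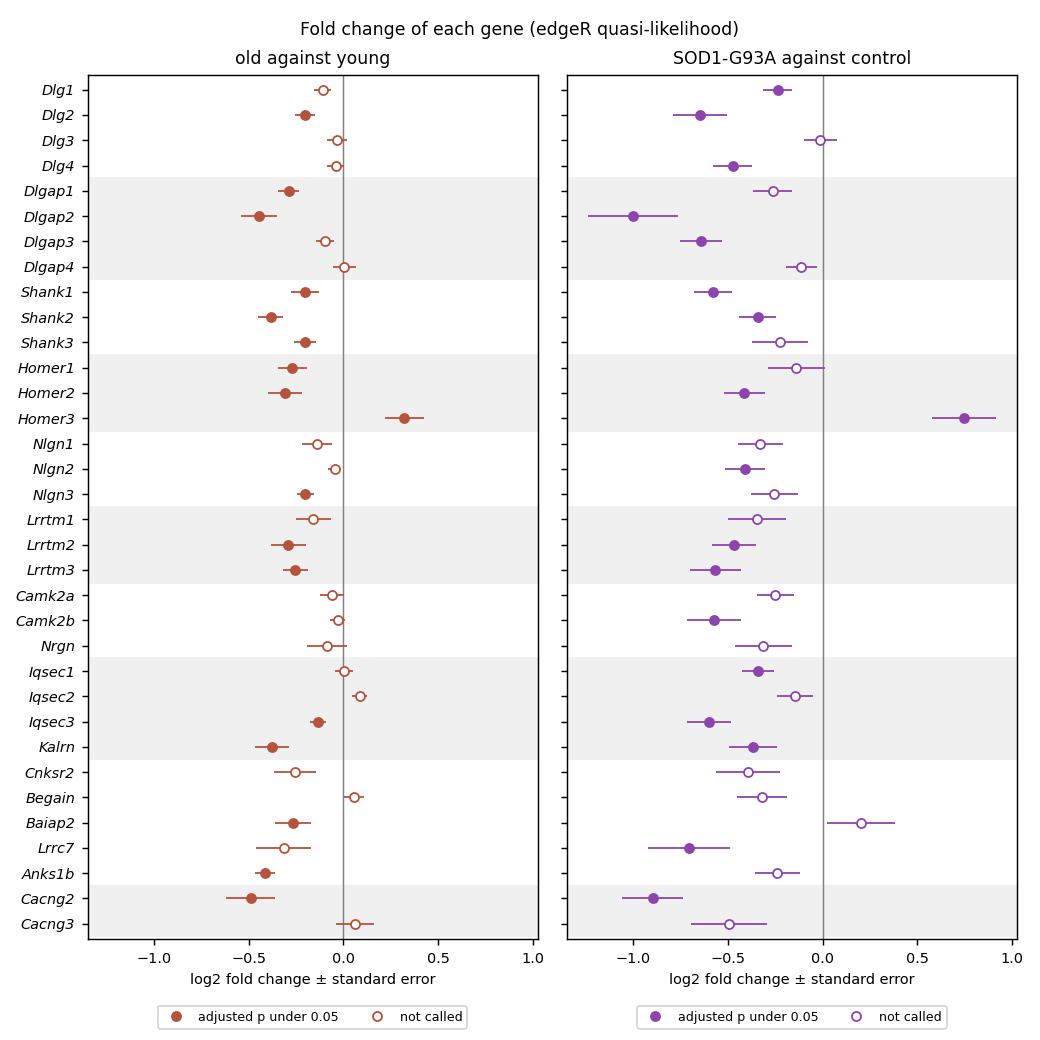
Log2 fold change of each gene with its standard error, old against young (left) and SOD1-G93A against control (right), on the same axis. Filled points passed an adjusted p of 0.05 and open points did not; 16 points on the left and 17 on the right are filled below 0, and Homer3 is the single filled point above 0 in each panel.

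The largest decrease in aging was in Cacng2 (stargazin; ENSMUSG00000019146; chr15:77991748-78120028, minus strand, GRCm38), an auxiliary subunit that carries AMPA-type glutamate receptors to the synapse. The young mice ranged from 94.4 to 124 CPM with a median of 102 CPM, and the old mice from 44.6 to 123 CPM with a median of 68.6 CPM. Of the old mice 7 lay below the lowest young mouse, and Old C, at 123.2 CPM, lay near the highest. The log2 fold change was -0.49 ± 0.13 (SE; edgeR adjusted p = 0.00721), and it remained called with each library left out in turn, between -0.63 and -0.41. Cacng3, the related auxiliary subunit, was not called, with 20.5 ± 2.12 CPM in young and 21.5 ± 4.30 CPM in old mice (SD, n = 8 each).

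Anks1b had the smallest adjusted p of the 34 genes. It encodes AIDA-1, a protein of the postsynaptic density that binds PSD-95 (ENSMUSG00000058589; chr10:89873509-90973300, plus strand). Young mice held 88.5 to 105 CPM with a median of 98.8 CPM and old mice 66.7 to 85.8 CPM with a median of 69.9 CPM, so the groups did not overlap. It fell by 24.9%, a log2 fold change of -0.41 ± 0.05 (edgeR adjusted p = 3.76e-06), and by 0.23 on the log2 scale with the correction for GC content and length. For 3 of the 34 genes, Anks1b, Dlgap2 and Homer1, every old mouse was below every young mouse in CPM, as in 1.66% of all genes. In FPKM the groups overlapped for all 3 genes. Old F was at 38.7, 4.18 and 6.9 FPKM, and the lowest young mouse at 30.5, 2.77 and 5.44 FPKM.

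Of the 10 Dlgap, Shank and Homer scaffolds, 7 fell in old mice. Dlgap2 (ENSMUSG00000047495; chr8:14095865-14847680, plus strand), which bridges Dlg and Shank proteins, was at 11.6 to 16 CPM with a median of 13.1 CPM in young and 8.02 to 11.4 CPM with a median of 9.60 CPM in old mice, a log2 fold change of -0.45 ± 0.10 (edgeR adjusted p = 0.00122). Dlgap1 fell by 18.2%, from 96.8 ± 6.26 to 79.3 ± 7.56 CPM (edgeR adjusted p = 0.000503). Dlgap3 and Dlgap4 were not called, at log2 fold changes of -0.10 and 0.01.

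All 3 Shank genes fell. Shank2 ranged from 50.4 to 64.3 CPM with a median of 55.8 CPM in young mice and from 37.1 to 50.7 CPM with a median of 41.6 CPM in old mice, and the groups overlapped by a single old mouse, Old B at 50.69 CPM. Its log2 fold change was -0.38 ± 0.07 (edgeR adjusted p = 0.00017). Shank3 fell by 13.1%, from 70.1 ± 6.60 to 60.9 ± 3.83 CPM (edgeR adjusted p = 0.0108). Shank1 changed by as much (-0.20 ± 0.07), but its edgeR adjusted p of 0.0498 was at the threshold, and its call was lost with 12 of the 16 libraries left out in turn. In Shank1 Old F was at 333.5 CPM and the other old mice at 227.4 to 252 CPM.

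Homer proteins bind group I metabotropic glutamate receptors and Shank, and the 3 genes did not move as a unit. Homer1 was at 19.0 to 22.4 CPM with a median of 21.0 CPM in young and 12.7 to 18.8 CPM with a median of 17.3 CPM in old mice, without overlap (log2 fold change -0.27 ± 0.08; edgeR adjusted p = 0.0103), but its log2 fold change was 0.02 with the correction for GC content and length (edgeR adjusted p = 0.859). Homer2 fell by 19.3% (edgeR adjusted p = 0.0142). Homer3 was the single member of the 34 that rose, from 16.4 ± 2.29 to 20.3 ± 3.43 CPM (log2 fold change 0.32 ± 0.10; edgeR adjusted p = 0.024), with young mice at 12.8 to 19.6 CPM and old mice at 16 to 25.1 CPM.

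The direction of Homer3 was the same under every scaling run, and its adjusted p ranged from 0.0174 to 0.0544 over the 7 other fits that kept all mice. It was above 0.05 with the correction for GC content and length and without Young B, Young C, Old D or Old G. Exons of Homer3 (ENSMUSG00000003573; chr8:70282827-70294361, plus strand) share 874 bases with Ddx49, an RNA helicase gene on the opposite strand. Whether reads were counted by strand is not stated, so reads of the 2 genes may not be separable. Ddx49 was itself higher in old mice, at a log2 fold change of 0.27 (edgeR adjusted p = 0.0386).

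Of the Dlg scaffolds, which anchor receptors at the membrane, 1 fell. Dlg2 (PSD-93) was at 190 to 218 CPM with a median of 203 CPM in young and 154 to 203 CPM with a median of 178 CPM in old mice (log2 fold change -0.20 ± 0.05; edgeR adjusted p = 0.00553), and it was at 0.03 with the correction for GC content and length. Dlg1 was not called at -0.11 (edgeR adjusted p = 0.0673), nor Dlg3 at -0.03. Dlg4 was at 323 to 361 CPM in young mice and 315 to 396 CPM in old mice, and the log2 fold change was -0.04 ± 0.05.

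Among adhesion molecules, Nlgn3, a neuroligin of both excitatory and inhibitory synapses, fell by 13%, from 99.5 ± 5.63 to 86.8 ± 4.67 CPM (edgeR adjusted p = 0.0019). Nlgn1, the neuroligin of excitatory synapses, was not called at -0.14, nor was Nlgn2 at -0.05. The Lrrtm proteins are leucine-rich partners of neurexins. Lrrtm3 fell by 16.1% (30.9 ± 2.26 to 25.9 ± 2.62 CPM; edgeR adjusted p = 0.00699) and Lrrtm2 by 18.3% (30.7 ± 3.46 to 25.3 ± 4.24 CPM; edgeR adjusted p = 0.0225). The decrease of Lrrtm3 was not seen in FPKM, at 13.7 ± 2.78 in young and 13.5 ± 1.65 in old mice, which were not tested. The call of Lrrtm2 was lost without Young F or Old D. Lrrtm1 was not called at -0.16.

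Of the 7 signalling genes, a pair of exchange factors fell in aging and the others were not called. Kalrn, an exchange factor of dendritic spines, was at 19.6 to 26.9 CPM with a median of 24.3 CPM in young and 15.1 to 21.9 CPM with a median of 18.4 CPM in old mice (log2 fold change -0.38 ± 0.09; edgeR adjusted p = 0.00315). Iqsec3, an Arf exchange factor that binds gephyrin at inhibitory synapses, fell by 8.73% (edgeR adjusted p = 0.0222), a call lost with upper-quartile factors, in a fit of all 22 libraries and with the correction for GC content and length (edgeR adjusted p up to 0.419). Iqsec1 at 0.00 ± 0.05 and Iqsec2 at 0.09 ± 0.04 were not called. Camk2a (-0.06), Camk2b (-0.03) and Nrgn, the calmodulin-binding protein neurogranin (-0.09), were not called either.

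The abundant genes of this set carried much of the weight of Old F. It held the highest value of the old mice for Dlg4, Shank1, Camk2a, Camk2b and Iqsec1, each beyond the others by a wide gap, and without it Shank1 was at an edgeR adjusted p of 0.000552 while Dlg4, Camk2a, Camk2b and Iqsec1 remained uncalled. Nlgn1, Cnksr2 and Lrrc7 were called lower without it. Of the remaining adaptors, Baiap2 (IRSp53), which acts on actin at the membrane, fell by 16.9% (26.4 ± 3.39 to 22 ± 3.44 CPM; edgeR adjusted p = 0.041), a call lost with 9 of the 16 libraries left out in turn. Cnksr2, a scaffold of Ras signalling (-0.26), Lrrc7 (-0.32) and Begain, a partner of PSD-95 (0.06), were not called with all libraries.

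**Figure D3:**
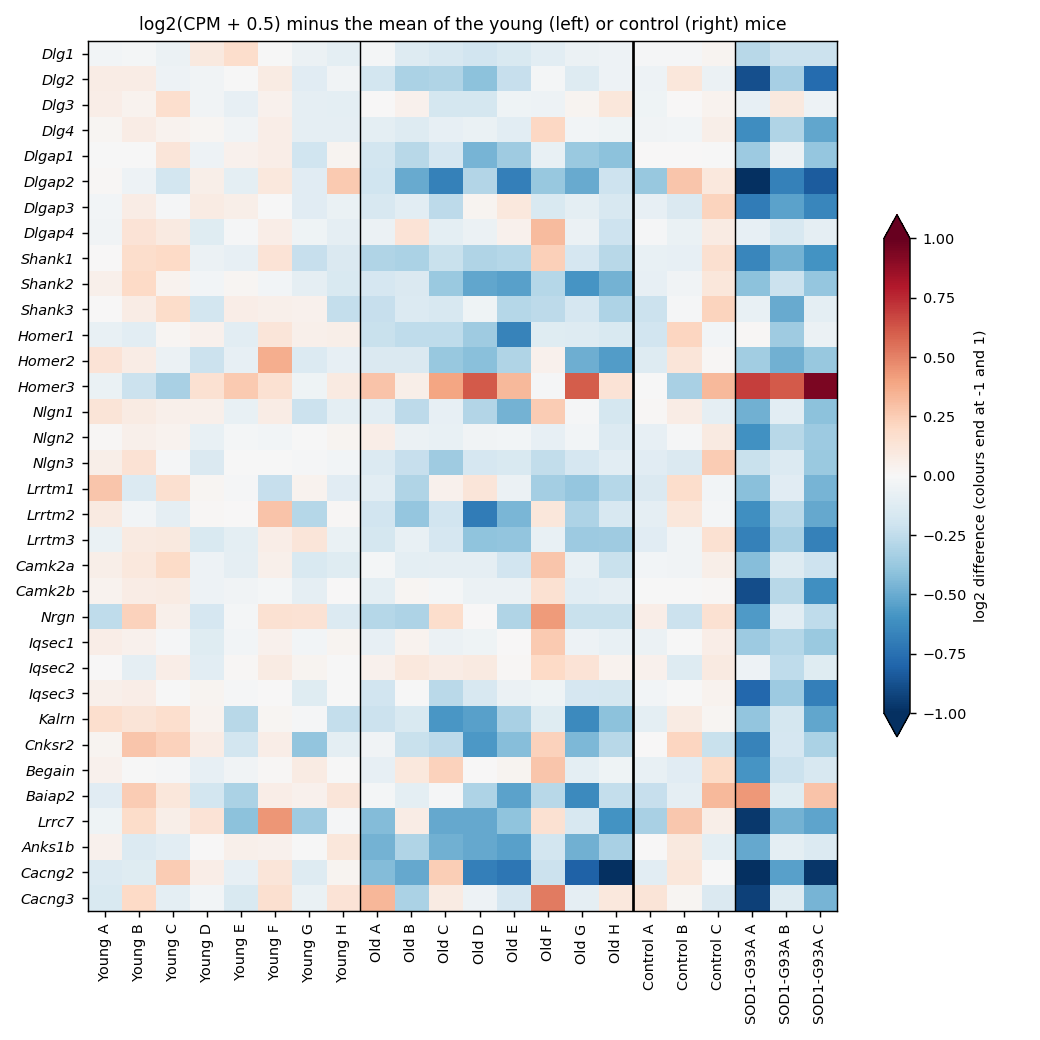
Log2(CPM + 0.5) of each gene (rows) in each mouse (columns), minus the mean of the young mice (left of the thick line) or of the control mice (right of it). Blue is lower and red is higher, and colours end at -1 and 1; columns of old and SOD1-G93A mice are mostly blue, Old F lies below the young mean in 19 genes and the other old mice in 26 to 31, and Homer3 is the red row.

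The decrease was present in most old mice when the set was read library by library. The median difference of the 34 genes from the young mean was between -0.08 and 0.07 on the log2 scale in the young mice and between -0.26 and -0.03 in the old mice. Old F was the mouse at -0.03, the other 7 old mice were at -0.14 or lower, and no young mouse was as low as those. Markers of other cells moved in the same samples. Microglia and macrophage markers (such as Aif1, Itgam and Csf1r) were higher for 10 of 11 genes, with sums of 349 to 393 CPM in young and 581 to 1000 CPM in old mice. Astrocyte markers (such as Gfap, Aqp4 and Aldh1l1) were higher for 4 of 7 and lower for 1. Schwann cell markers were at a median log2 fold change of 0.04, with 1 of 2 tested genes higher. Markers of oligodendrocytes, their precursors and endothelial cells had medians close to that of the 34 genes. Oligodendrocyte markers were at a median log2 fold change of -0.15 (2 of 7 lower, 1 higher). Oligodendrocyte precursor markers were at -0.17 (2 of 4 lower) and endothelial markers at -0.15 (2 of 5 lower), and 0 of either were higher. Of 15 pan-neuronal markers 5 fell and 2 rose, with a median log2 fold change of -0.13, and of 8 motor neuron markers (such as Chat, Slc18a3 and Slc5a7) 1 fell. The part of these shifts in the decrease of the postsynaptic genes was not tested.

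In ALS, 17 of the 34 genes fell and 1 rose (edgeR's quasi-likelihood test, adjusted p under 0.05). Over all 14386 genes tested, 15.5% were lower and 18.4% were higher. The 34 genes had a median of -0.34 on the log2 scale, a decrease of 21.3%, beside 0.00 over all genes, and 32 of the 34 fold changes were negative, against 49.7% of all genes. Every SOD1-G93A mouse was below every control mouse in 22 of the 34 genes, as in 24.7% of all genes, and above in 1, as in 25.7% of all genes. Dlgap2 alone also passed a log2 fold change of -1, as 1.2% of all genes did. The genes that fell included 3 of 4 Dlg genes and 3 of 4 exchange factors.

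With 3 mice in a group the number of calls depended on single libraries. It was 8 without Control B, 9 without Control C, 6 without SOD1-G93A C and 26 without SOD1-G93A B. Dlg4, Dlgap3, Shank1, Iqsec3 and Cacng2 were called whichever library was left out. With the correction for GC content and length 12 genes were lower and 1 was higher, and 11 of the 18 calls were shared with the fit without it. Those of Dlg1, Dlg4, Shank2, Homer2, Iqsec1, Kalrn and Lrrc7 were lost. Dlgap3, Shank1, Iqsec3 and Cacng2 were called under every alternative run.

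Cacng2 again showed a large decrease. The control mice held 153.9, 179.4 and 165.8 CPM and the SOD1-G93A mice 70.08, 113.6 and 84.51 CPM, so that the highest SOD1-G93A mouse was below the lowest control. It fell by 46.3%, a log2 fold change of -0.90 ± 0.16 (edgeR adjusted p = 0.00444). Cacng3 stood at 20.21, 18.69 and 16.6 CPM in control and 9.406, 16.82 and 13.25 CPM in SOD1-G93A mice. These overlapped, and Cacng3 was not called (-0.50 ± 0.20; edgeR adjusted p = 0.0879).

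Of the 8 Dlg and Dlgap scaffolds, 5 fell, and Dlgap2 had the most negative fold change of the 34 genes in ALS. It was at 8.541, 13.72 and 12.14 CPM in control and 4.321, 6.849 and 6.088 CPM in SOD1-G93A mice and fell by 50.1% (edgeR adjusted p = 0.0128), and its call was lost without Control B. Dlgap3 (ENSMUSG00000042388; chr4:127169204-127237022, plus strand) was at 86.1 ± 12.2 CPM (SD, n = 3), with the lowest mouse at 77.45 CPM, in control and 52.37, 59.02 and 54.25 CPM in SOD1-G93A mice (-0.64 ± 0.11; edgeR adjusted p = 0.00403). All SOD1-G93A mice lay below all controls for both genes. Dlgap1 (-0.26) and Dlgap4 (-0.11) were not called.

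Dlg4 (ENSMUSG00000020886; chr11:70016942-70047522, plus strand) was at 265.5, 266.4 and 283.5 CPM in control and 176.3, 220.7 and 189.8 CPM in SOD1-G93A mice, a log2 fold change of -0.47 ± 0.10 (edgeR adjusted p = 0.00892). Dlg2 was at 187.0, 210.5 and 186.0 CPM in control and 105.1, 154.0 and 113.7 CPM in SOD1-G93A mice (-0.65 ± 0.14; edgeR adjusted p = 0.00968). With the correction for GC content and length Dlg2 was at -0.37, and its call was lost without SOD1-G93A C. In both genes SOD1-G93A B was the least reduced of its group. Dlg1 fell by 15.2% (edgeR adjusted p = 0.0409), a call lost with 5 of the 6 libraries left out in turn, and Dlg3 (SAP102) was at -0.01 ± 0.09.

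Shank1 and Shank2 fell and Shank3 was not called. Shank1 was at 204.0, 203.1 and 240.7 CPM in control and 136.8, 155.2 and 141.7 CPM in SOD1-G93A mice (-0.58 ± 0.10; edgeR adjusted p = 0.00388), the smallest adjusted p of the set in ALS, and the fold change was -0.33 with the correction for GC content and length. Shank2 fell by 21.2% (edgeR adjusted p = 0.0253), a call lost with 4 of the 6 libraries left out in turn. For Shank3 the mice overlapped, with 59.31, 68.61 and 80.76 CPM in control and 65.42, 48.64 and 64.46 CPM in SOD1-G93A mice. Shank1 was the most reduced of the 3 Shank genes in every SOD1-G93A mouse but SOD1-G93A B, where Shank3 was.

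Homer3 rose in ALS too, from 18.41, 14.65 and 23.13 CPM in control to 30.0, 28.5 and 35.9 CPM in SOD1-G93A mice, without overlap (0.75 ± 0.17; edgeR adjusted p = 0.0111). Without SOD1-G93A C its adjusted p was 0.0574. The overlapping gene Ddx49 was higher as well, at a log2 fold change of 0.40 (edgeR adjusted p = 0.0281). Homer2 fell by 24.9% (edgeR adjusted p = 0.0192), a call lost without Control B, Control C or SOD1-G93A C, and Homer1 was at -0.14 ± 0.15.

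Of the adhesion molecules, Nlgn2, the neuroligin of inhibitory synapses, was at 212.8, 222.6 and 239.6 CPM in control and 147.9, 184.9 and 174.8 CPM in SOD1-G93A mice (-0.41 ± 0.11; edgeR adjusted p = 0.0171), a call lost without Control B, Control C or SOD1-G93A C. Nlgn1 (-0.33) and Nlgn3 (-0.25) were not called. Lrrtm3 was at 27.62, 29.21 and 33.42 CPM in control and 18.56, 23.87 and 18.62 CPM in SOD1-G93A mice (-0.57 ± 0.13; edgeR adjusted p = 0.0127), and Lrrtm2 fell by 27.8% (edgeR adjusted p = 0.015). The call of Lrrtm3 was lost without Control C or SOD1-G93A C and that of Lrrtm2 without Control B or SOD1-G93A C. Lrrtm1 was at -0.35 and was not called. The groups did not overlap for the 3 adhesion genes that fell. Lrrtm2 shares 95 exonic bases with Ctnna1, a catenin gene that was higher in ALS (0.63; edgeR adjusted p = 0.00456).

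Of the kinase, calmodulin and exchange factor genes, 4 of 7 fell in ALS. Camk2b (ENSMUSG00000057897; chr11:5969644-6066362, minus strand) was at 375.8, 375.1 and 379.3 CPM in control and 203.9, 310.0 and 245.5 CPM in SOD1-G93A mice (-0.57 ± 0.14; edgeR adjusted p = 0.0148). The controls differed by little and the SOD1-G93A mice spread widely below them. Iqsec1 was at 444.3, 461.0 and 483.5 CPM in control and 359.8, 378.6 and 357.1 CPM in SOD1-G93A mice (-0.34 ± 0.08; edgeR adjusted p = 0.0152). Iqsec3 was at 330.1, 335.2 and 344.7 CPM in control and 195.5, 261.4 and 209.4 CPM in SOD1-G93A mice (-0.60 ± 0.12; edgeR adjusted p = 0.00594). Each of these genes had its 3 SOD1-G93A mice below all controls. The calls of Camk2b and Iqsec1 were lost without Control B, Control C or SOD1-G93A C, and that of Iqsec1 also with the correction for GC content and length (edgeR adjusted p = 0.0539). Kalrn was at -0.37 with an edgeR adjusted p of 0.0498, which was lost with 5 of the 6 libraries left out in turn. Camk2a (-0.25), Nrgn (-0.31) and Iqsec2 (-0.14) were not called.

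Of the other adaptors 1 of 5 was called. Lrrc7 was at 8.731, 13.47 and 11.53 CPM in control and 5.423, 7.856 and 7.52 CPM in SOD1-G93A mice (-0.70 ± 0.22; edgeR adjusted p = 0.0346), a call lost with 4 of the 6 libraries left out in turn. Anks1b, the gene with the smallest adjusted p in aging, was at 96.89, 103.1 and 90.13 CPM in control and 67.7, 90.34 and 87.82 CPM in SOD1-G93A mice, which overlapped (-0.24 ± 0.12; edgeR adjusted p = 0.154). Begain (-0.32) and Cnksr2 (-0.39) were not called. Baiap2 and Homer3 were the only members with a positive fold change, and Baiap2 was not called (0.20 ± 0.18).

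**Figure D4:**
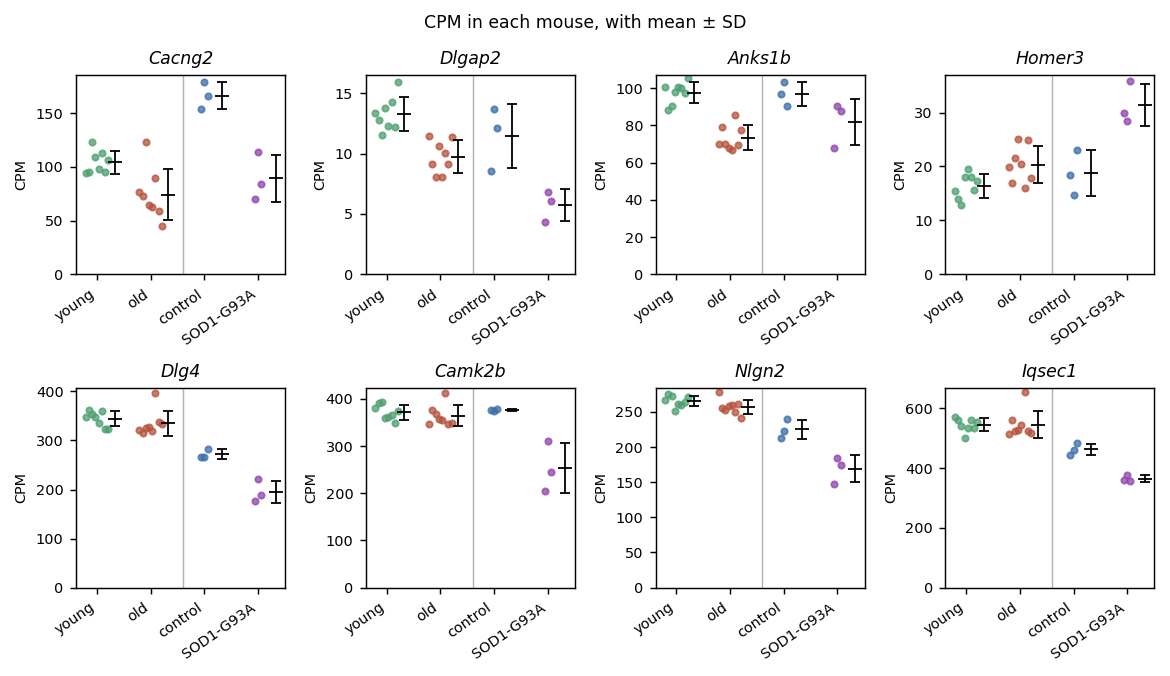
CPM of 8 of the genes in every mouse (points) with the mean and SD of each group (bars), with the axis starting at 0 in every panel. Cacng2 and Dlgap2 are lower in both old and SOD1-G93A mice, Anks1b separates old from young, Homer3 is higher in both, and Dlg4, Camk2b, Nlgn2 and Iqsec1 separate SOD1-G93A from control mice while young and old mice overlap.

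The set as a whole was lower in each SOD1-G93A mouse, to unequal extents. Its median difference from the control mean on the log2 scale was -0.495 in SOD1-G93A A, -0.38 in SOD1-G93A C and -0.24 in SOD1-G93A B, while the controls were between -0.07 and 0.06. Pan-neuronal markers followed the same order, with sums of 4530, 5100 and 6700 CPM in mice A, C and B against 8400 to 8570 CPM in controls. Microglia and macrophage markers followed the reverse order, with sums of 2740, 2200 and 1490 CPM against 360 to 433 CPM. Motor neuron markers were at 156, 141 and 143 CPM in mice A, C and B against 287 to 322 CPM in controls and did not follow that order. Inhibitory neuron markers, at 1030, 874 and 1210 CPM against 1470 to 1520 CPM, did not follow it either. Sums of excitatory neuron markers, at 140, 158 and 248 CPM against 271 to 305 CPM, did. Such an order among 3 mice can easily arise by chance and was not tested. Microglia and macrophage markers were higher for 9 of 11 genes and astrocyte markers for 5 of 7. Oligodendrocyte precursor markers were higher for 2 of 4, with a median log2 fold change of 0.51. Of oligodendrocyte markers 0 of 7 were called (median -0.15), and of endothelial markers 0 of 5 (median -0.18). Of the pan-neuronal markers 13 of 15 fell and 1 rose, with a median log2 fold change of -0.59, further than the median of the postsynaptic genes, and 6 of 8 motor neuron markers fell. The part of these shifts in the changes of the postsynaptic genes was not tested.

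**Figure D5:**
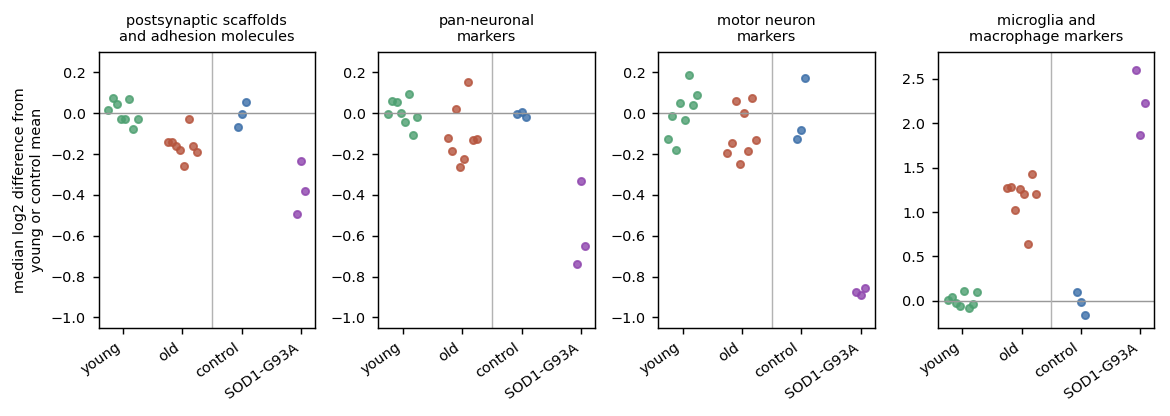
Median log2 difference of 4 gene lists in each mouse from the mean of the young mice (for young and old) or of the control mice (for control and SOD1-G93A). The microglia panel has a wider axis than the other 3; the postsynaptic genes are lower in old than in young mice except for Old F at -0.03, and are at -0.24 to -0.495 in the SOD1-G93A mice, where the pan-neuronal and motor neuron medians are lower yet.

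Whether the change differed between ALS and aging was tested with an interaction term in a fit of all 22 libraries, in which kit and experiment coincide. The fold change was more negative in ALS for 12 of the 34 genes and more positive for 0 (edgeR's quasi-likelihood test, adjusted p under 0.05). Over all 14502 genes tested, 14.2% were more negative and 11.6% more positive. The 12 genes were Dlg2, Dlg4, Dlgap2, Dlgap3, Shank1, Nlgn2, Camk2b, Iqsec1, Iqsec2, Iqsec3, Begain and Cacng3. The smallest adjusted p was that of Dlgap3, at a difference of -0.57 ± 0.11 (edgeR adjusted p = 0.000354). Next came Camk2b at -0.57 ± 0.11 (edgeR adjusted p = 0.000572), Iqsec3 at -0.50 ± 0.10 (edgeR adjusted p = 0.000596), Dlg4 at -0.46 ± 0.10 (edgeR adjusted p = 0.000997) and Nlgn2 at -0.39 ± 0.08 (edgeR adjusted p = 0.0012). These 5 and Iqsec1 were called in every alternative run, each ALS library or Old F left out included. Without Old F 8 genes were called, with Dlgap2, Shank1, Iqsec2 and Cacng3 lost, and without SOD1-G93A A 7 were called.

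The genes then fell into groups by their calls. Dlg2, Dlgap2, Shank1, Shank2, Homer2, Lrrtm2, Lrrtm3, Iqsec3, Kalrn and Cacng2 were lower in both comparisons, 62.5% of the 16 genes lower in aging and 58.8% of the 17 lower in ALS. Of the 13610 genes tested in both comparisons, 5.36% were lower in both, which was 41.5% of those lower in aging and 32.8% of those lower in ALS. These shares were taken without the correction for GC content and length. With the correction, Dlgap2, Lrrtm3 and Cacng2 were the only members called lower in both. By the uncorrected calls a further 7 were lower in ALS and not in aging, and for 5 of them, Dlg4, Dlgap3, Nlgn2, Camk2b and Iqsec1, the difference between the comparisons also passed the test. A further 6 were lower by call in aging and not in ALS: Dlgap1, Shank3, Homer1, Nlgn3, Baiap2 and Anks1b. For 0 of these 6 did the difference pass, so a change particular to aging was not shown for any of them. In the fit of all 22 libraries Dlgap1, Nlgn3 and Anks1b were called lower in ALS as well (edgeR adjusted p = 0.0124, 0.0127 and 0.0272). For Baiap2, with fold changes of opposite sign, the difference was 0.44 ± 0.19 (edgeR adjusted p = 0.0972), and for Anks1b it was 0.15 ± 0.12 (edgeR adjusted p = 0.376). Dlg3, Dlgap4, Nlgn1, Lrrtm1, Camk2a, Iqsec2, Cnksr2, Begain, Nrgn and Cacng3 were called in neither separate fit, which at these depths and numbers of mice does not show that they were unchanged. Among them Nlgn1, Lrrtm1, Camk2a, Iqsec2, Begain and Cacng3 were called lower in ALS in the fit of all 22 libraries.

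Other genes of the synapse also fell, and their counts were not tested against those of the 34. Of 44 excitatory postsynaptic genes outside the 34, 14 fell and 1 rose in aging and 22 fell and 2 rose in ALS, with median log2 fold changes of -0.12 and -0.33. Synpo, which encodes the actin-binding protein synaptopodin, rose from 26.7 ± 2.38 to 41.5 ± 3.52 CPM in aging (0.64; edgeR adjusted p = 1.16e-07) and by 1.18 on the log2 scale in ALS (edgeR adjusted p = 0.00103). Frmpd4, a scaffold that binds PSD-95, fell in both (-0.36 and -0.84; edgeR adjusted p = 0.00013 and 0.0154). Sipa1l1, a Rap GTPase-activating protein of spines, also fell in both (-0.26 and -0.46; edgeR adjusted p = 0.000138 and 0.0117).

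Neurexins, receptor phosphatases, calsyntenins and other partners of the adhesion molecules fell for 5 of 15 genes in aging and 9 of 15 in ALS, and 0 rose in either. Nrxn3, a neurexin that binds neuroligins and Lrrtm proteins, was at log2 fold changes of -0.33 (edgeR adjusted p = 0.00073) in aging and -0.52 (edgeR adjusted p = 0.0152) in ALS. Ptprd, a receptor phosphatase of presynaptic terminals, was at -0.43 (edgeR adjusted p = 1.35e-07) and -0.51 (edgeR adjusted p = 0.0164). Genes of the inhibitory postsynapse fell for 6 of 8 in aging and 5 of 8 in ALS, with medians of -0.22 and -0.46. Among them Gphn, which encodes the inhibitory scaffold gephyrin, was at -0.29 in aging (edgeR adjusted p = 0.000106) and -0.40 in ALS (edgeR adjusted p = 0.0128).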

How the data were processed

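RNA-seq was analysed from whole spinal cord of 22 mice. Alignment with STAR and estimation of gene counts with RSEM, on mm10 and Ensembl genes, were done by the authors, and the submitters' processing notes also name SAMtools 1.3. The authors deposited expected counts for 21995 genes, without normalization and already whole numbers, and log2 values, the log2 of FPKM plus 1. Tests used the expected counts, and FPKM served to compare levels between genes. A strand setting for the counting is not given in the sources used here. Exons of 13 of the 34 genes overlap another gene, and those of Homer3, Lrrtm2 and Shank1 overlap a protein-coding gene (GENCODE M21, GRCm38). Columns name the group and not the replicate number.

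Each comparison was fitted separately with edgeR 4.0.16 (R 4.3.3, limma 3.58.1) by its quasi-likelihood test, after filterByExpr (minimum count 10, minimum total 15) and TMM scaling. Adjusted p-values are Benjamini-Hochberg values over the whole table. The difference between comparisons was tested as a contrast in a fit of all 22 libraries. Sex was not a covariate, because it is not given per library. Values ± are SD for levels and SE for fold changes. Where mice of a group were not from separate litters, p-values measure the spread between these mice only. Pairs of libraries within a group differed by more than sampling noise (chi-square per degree of freedom of 2.52 or more), so no library was a duplicate.

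The 34 genes, the other gene lists and the rule for named genes (all 34, at most 4 per synaptic list by smallest adjusted p, and the first 3 of a marker list) were chosen with earlier results of these data known. Insyn2a, 1 of the inhibitory genes, was matched by its synonym. The procedure was tested on simulated data in which 200 genes were shifted by 1.5 on the log2 scale. It found 99.5% of them for aging (13647 genes) and 91% for ALS (14386 genes), and 6.57% and 7.14% of the calls fell on unchanged genes. The largest change of any of the 34 genes was -1.00 (Dlgap2 in ALS), so recovery of changes of their size was not tested. Alternatives were DESeq2 1.42.0, RLE and upper-quartile factors, no filter, at least 10 counts in every library, a fit of all 22 libraries, a loess correction for GC content and length (span 0.3) and each library left out. Python 3.11.15, pandas 2.3.3, matplotlib 3.10.9 and scipy 1.17.1 were used.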

Additional observations from a re-analysis of the deposited data

Results flagged for a closer look

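Levels of the 34 genes were examined for a mouse that stood apart in the 68 groups of 8 (34 genes in young and in old mice), by the gap to the nearest mouse against the range of the group. This flagged 6 groups. Chance flags about 1 in 20 independent groups, but these groups share the same libraries, so the count cannot be judged by that rate. In 5 of the 6 flagged groups the mouse was the same one, Old F. It held 396.2 CPM of Dlg4 against 314.8 to 336.9 CPM in the other old mice, 333.5 CPM of Shank1 against 227.4 to 252 CPM, and 202.1 CPM of Camk2a against 142.1 to 163.6 CPM. It also held 412.9 CPM of Camk2b against 345.9 to 377 CPM and 654.1 CPM of Iqsec1 against 515.9 to 559.8 CPM. All 5 values were above the others. The 6th was Young G, with 306.7 CPM of Iqsec3 against 330 to 348.4 CPM in the other young mice.

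For 12 genes the log2 fold change in ALS differed from that in aging (edgeR's quasi-likelihood test of the interaction, adjusted p under 0.05), and in all 12 it was more negative in ALS. The difference was -0.47 for Dlg2, -0.46 for Dlg4, -0.59 for Dlgap2, -0.57 for Dlgap3, -0.41 for Shank1 and -0.39 for Nlgn2. It was -0.57 for Camk2b, -0.37 for Iqsec1, -0.26 for Iqsec2, -0.50 for Iqsec3, -0.40 for Begain and -0.59 for Cacng3. Of these genes, Iqsec2, Begain and Cacng3 were called in neither comparison when each was fitted separately, with aging fold changes above 0 (0.09, 0.06 and 0.06) and ALS fold changes below 0 (-0.14, -0.32 and -0.50). In the fit of all 22 libraries, which gave the interaction, these 3 were called lower in ALS (edgeR adjusted p = 0.0499, 0.0071 and 0.0209). Kit and experiment coincide with the comparison and cannot be told apart from it.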

How the results depend on the processing

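The number of the 34 genes called in aging was 17, and 14 to 18 with DESeq2, RLE or upper-quartile factors, no filter, at least 10 counts in every library or a fit of all 22 libraries. It was 8 with the correction for GC content and length, 0 with a log2 fold change beyond 1 as well, and 13 to 20 with a library left out. In ALS it was 18, and 16 to 27 in the same settings, 13 with the correction, 1 beyond a log2 fold change of 1, and 6 (without SOD1-G93A C) to 26 (without SOD1-G93A B) with a library left out. The difference between comparisons was called for 12 genes, and 10 to 12 in the other settings, and for 7 to 14 with a library left out. Leaving out aging libraries, and the correction or Old F left out for the difference between comparisons, were chosen after seeing the data.

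Fold changes that turned sign belonged to genes near 0 or rested on the correction for GC content and length. With the correction the aging log2 fold change was 0.0792 for Dlg1, 0.0336 for Dlg2, 0.14 for Dlg4, 0.0246 for Homer1, 0.14 for Nlgn1, 0.0031 for Camk2b and -0.0395 for Cacng3, and that in ALS was 0.0445 for Dlgap4, 0.0262 for Shank3, 0.19 for Homer1 and 0.0107 for Anks1b. In aging, Dlgap4 was at -0.0032 without a filter, and Iqsec1 at -0.0017 with DESeq2 and -0.0070 without a filter. In ALS, Dlg3 was at 0.0001 with at least 10 counts in every library. With a library left out, the ranges that crossed 0 were -0.0431 to 0.0325 for Dlgap4, -0.0398 to 0.012 for Iqsec1 and -0.0143 to 0.111 for Cacng3 in aging, and -0.0658 to 0.0307 for Dlg3 in ALS. The cause was not tested. No paired analysis was possible because the columns carry no replicate numbers. Depth did not keep any of the 34 genes from being tested, since the lowest level, 4.321 CPM for Dlgap2 in an SOD1-G93A mouse, is well above the 3-count floor of at most 0.582 CPM. With a library left out in turn, 13 of the 17 aging calls and 5 of the 18 ALS calls were kept whichever it was, and with the correction 6 and 11 were.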

Other observations

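Genes outside the 34 showed further decreases. Among excitatory postsynaptic genes, Grip1, which binds AMPA receptors, was at 16.3 ± 1.77 CPM in young and 11.4 ± 1.72 CPM in old mice (SD, n = 8; log2 fold change -0.50; edgeR adjusted p = 0.000368), and its change of -0.74 in ALS was not called (edgeR adjusted p = 0.0748). Among genes of the inhibitory postsynapse, Mdga2 and Mdga1, membrane proteins that bind neuroligins, fell in aging by 0.43 and 0.49 on the log2 scale (edgeR adjusted p = 5.23e-05 and 0.000415) and were not called in ALS at -0.29 and -0.10. Slitrk3, an adhesion molecule of inhibitory synapses, fell in both comparisons (-0.26 and -0.69; edgeR adjusted p = 0.00337 and 0.0121). Clstn2, a calsyntenin, fell in both comparisons (-0.23 and -0.61; edgeR adjusted p = 0.00235 and 0.011).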
